A study of Mus musculus with 12 samples.

Results

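The 10 genes described here belong to the Notch pathway and to the Hes and Hey families of transcriptional repressors that it controls: the ligand genes Dll1, Dll3 and Jag1, the receptor genes Notch1, Notch2 and Notch3, and Hes1, Hes5, Hes6 and Hey1. They were taken by gene symbol, as every probe set annotated with exactly 1 symbol equal to one of these names, which gave 12 probe sets for 10 of the 22180 named genes of the array. All 10 had a mean signal above the filter on dim genes and were among the 17467 genes tested. The set was chosen on measured values: Hes5 had already been seen to be low on the mirtazapine and citalopram arrays, and the other 9 were added as its pathway. The signals of Hes5 are therefore given as a description with no test, and the tests of the other members are no independent support for a pattern in the set.

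RNA came from primary neuronal cultures of embryonic brain of ICR (CD-1) mice, an outbred stock. Drug was added on day 3 in vitro and RNA was taken on day 5, after 48 h. Amitriptyline and imipramine, both tricyclic antidepressants, were used at 5 µM. Citalopram, which blocks serotonin reuptake selectively, was used at 10 µM, and duloxetine, which blocks reuptake of serotonin and noradrenaline, at 0.1 µM. Mirtazapine, a tetracyclic antidepressant that blocks receptors rather than transporters, was used at 50 µM. Each drug had a single concentration, so between drugs used at different concentrations, drug and concentration cannot be told apart. What the control cultures received is not stated in the labels used here. Each group had 2 arrays, 12 in all, and each value is an RMA log2 signal, on which a difference of 1 is a doubling. The labels do not say whether the 2 replicates came from separate cultures, so the spread behind every p-value is that between these arrays and may be technical. Signals of different probe sets cannot be set against each other, so only differences between arrays are read.

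Notch signalling passes between touching cells. A Delta or Jagged ligand on one cell binds a Notch receptor on its neighbour, the receptor is cleaved by an ADAM protease and by γ-secretase, and the freed intracellular domain joins the DNA-binding protein RBPJ and Mastermind coactivators to switch on Hes and Hey genes. In the embryonic brain this keeps radial glia, the neural stem cells, from turning into neurons, because Hes1 and Hes5 repress the proneural genes that start neuronal differentiation. Hes5 is also expressed as progenitors turn to an astrocyte fate. In bulk RNA, fewer cells of a type and less RNA per cell cannot be told apart.

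Of the 10 genes, 8 had upstream sequence in the RefSeq promoter table (GRCm38.p6), with 10 windows of 250 bases before an annotated start. These were searched on both strands for the letters GTGGGAA, the form of the RBPJ site often described in Notch targets, for CAGCTG, an E-box that proneural factors bind, and for CACNAG, the N-box that Hes proteins bind. CACNAG can share up to 3 letters with either of the other motifs. The window of Hes5 held GTGGGAA at 2 places, 226 to 220 bases before the start on the opposite strand and 83 to 77 bases before it on the gene's own strand. No other member window held it (1 of 10 windows). Hes1 and Hey1 had no window in the promoter table, so they were not searched for any of these motifs. Of all 32851 promoters in the table, 5.42% had at least 1 match in the same 250 bases and 0.161% had 2 or more. The windows are shown for the 3 members with the lowest signals relative to control, with GTGGGAA on either strand in capitals. That of Hes5 lies at chr4:154960673-154960922 (+), that of Notch2 at chr3:98013288-98013537 (+) and that of Dll3 at chr7:28301786-28302035 (−), each printed 5′ to 3′ on the gene's strand.
Hes5: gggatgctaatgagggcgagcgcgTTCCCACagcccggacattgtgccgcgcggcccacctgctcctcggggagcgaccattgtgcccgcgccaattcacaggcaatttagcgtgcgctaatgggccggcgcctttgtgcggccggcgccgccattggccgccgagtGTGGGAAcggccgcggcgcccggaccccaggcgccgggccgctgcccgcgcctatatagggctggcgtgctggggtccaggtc
Notch2: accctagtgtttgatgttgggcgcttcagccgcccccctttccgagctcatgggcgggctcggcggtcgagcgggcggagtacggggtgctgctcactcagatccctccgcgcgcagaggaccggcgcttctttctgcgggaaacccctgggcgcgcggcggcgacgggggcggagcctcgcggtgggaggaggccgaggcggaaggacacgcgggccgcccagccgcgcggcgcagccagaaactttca
Dll3: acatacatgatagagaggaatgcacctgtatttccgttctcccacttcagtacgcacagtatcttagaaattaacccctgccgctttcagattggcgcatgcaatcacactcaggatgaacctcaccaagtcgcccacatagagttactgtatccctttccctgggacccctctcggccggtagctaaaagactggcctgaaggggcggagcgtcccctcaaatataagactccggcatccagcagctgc
CAGCTG was found in 13.0% of all promoters and CACNAG in 36.7%. Dll3 held CAGCTG 7 to 2 bases before its start, Notch2 held CACNAG 247 to 242 bases before its start, and Hes5 held neither. A match is a run of letters and says nothing of binding in these cultures.

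Hes5, the repressor gene that is a direct target of Notch in neural progenitors, had the widest range of the 10 across the arrays. On its brighter probe set control replicates 1 and 2 read 9.72 and 9.76, and the duloxetine arrays 9.73 and 9.48. The citalopram arrays read 9.08 and 8.93, the imipramine arrays 8.84 and 9.01, the amitriptyline arrays 8.80 and 8.99, and the mirtazapine arrays 8.57 and 8.62. All 8 arrays of these 4 drugs therefore lay below both control arrays and below both duloxetine arrays, and duloxetine overlapped control. From control to mirtazapine the group means were in the order control (9.74), duloxetine (9.61), citalopram (9.0), imipramine (8.93), amitriptyline (8.89) and mirtazapine (8.59). The arrays of neighbouring groups in this order were separate only between duloxetine and citalopram (gap 0.60) and between amitriptyline and mirtazapine (gap 0.30). Duloxetine had the lowest concentration (0.1 µM) and mirtazapine the highest (50 µM), so drug and concentration cannot be told apart in this order. Against control the log2 difference was −1.14 ± 0.12 (SE) for mirtazapine, −0.84 ± 0.12 for amitriptyline, −0.81 ± 0.12 for imipramine, −0.73 ± 0.12 for citalopram and −0.13 ± 0.12 for duloxetine. In linear terms Hes5 signal was 45.2% of control under mirtazapine, 55.7% under amitriptyline, 56.8% under imipramine, 60.1% under citalopram and 91.1% under duloxetine.

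The array carries a second probe set for Hes5, with a lower signal, on which no drug group was separate from control. Control replicates 1 and 2 read 6.91 and 7.52 there, further apart than any pair of group means. The duloxetine arrays read 7.43 and 7.47, the citalopram arrays 7.0 and 7.23, and the amitriptyline arrays 7.01 and 7.20. The imipramine arrays, at 7.56 and 6.58, included both the highest and the lowest of the 12 values, and the mirtazapine arrays read 7.02 and 7.27. Both duloxetine arrays lay above all amitriptyline, citalopram and mirtazapine arrays, as on the brighter probe set. Log2 differences from control on this probe set were −0.07 ± 0.30 (SE) for mirtazapine, −0.11 ± 0.30 for amitriptyline, −0.15 ± 0.30 for imipramine, −0.10 ± 0.30 for citalopram and 0.23 ± 0.30 for duloxetine. The 95% interval for mirtazapine, −0.76 to 0.62, does not reach the −1.14 of the brighter probe set. The annotation used here does not say which part of Hes5 either probe set covers, so the low signal of Hes5 relative to control rests on the brighter one alone.

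**Figure D1:**
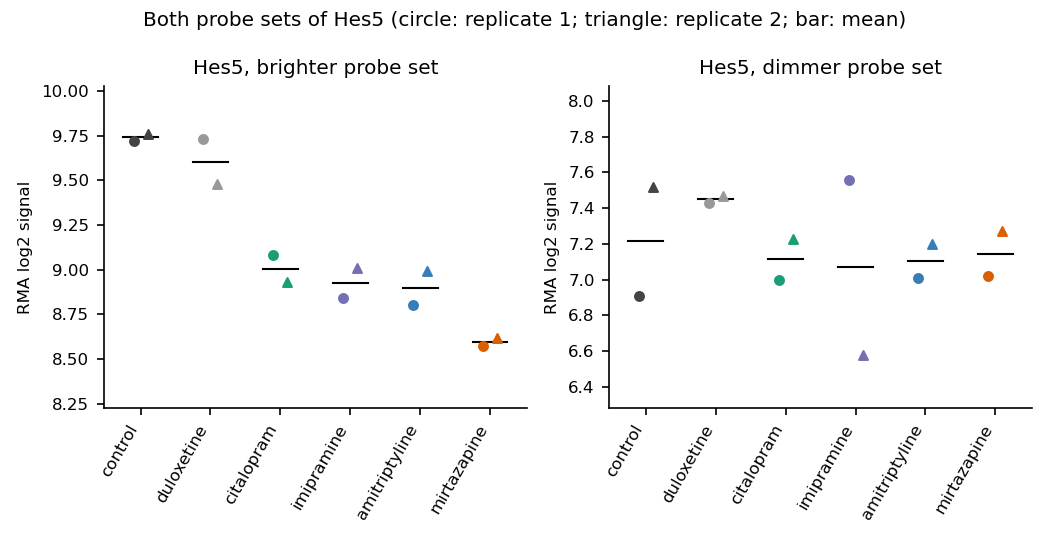
RMA log2 signal of both Hes5 probe sets on each of 12 arrays, by group; circles are replicate 1, triangles replicate 2 and bars the mean of 2 arrays. On the brighter probe set all citalopram, imipramine, amitriptyline and mirtazapine arrays lie between 8.57 and 9.08, below the control and duloxetine arrays, while on the dimmer one every drug group overlaps control and the duloxetine arrays (7.43 and 7.47) lie above those of amitriptyline, citalopram and mirtazapine.

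Among the receptors Notch2, a receptor of radial glia and other progenitors, differed from control in the same direction as Hes5. Control replicates 1 and 2 read 8.59 and 8.41, the mirtazapine arrays 7.80 and 7.81. The arrays of imipramine (7.98 and 8.22), amitriptyline (7.99 and 8.22), citalopram (8.14 and 8.28) and duloxetine (8.24 and 8.22) lay between these. Every drug array was thus below both control arrays, duloxetine included, and the mirtazapine arrays were below all others. Notch2 fell 1.62-fold under mirtazapine (log2 difference −0.69 ± 0.12 SE, adjusted p = 0.0228 in limma over 17467 genes), on 2 of 2 arrays. Under mirtazapine 1.74% of all tested genes were called (1.47% called lower), and of the 9 members other than Hes5 only Notch2 was called. Under the other drugs Notch2 differed by −0.40 (imipramine, adjusted p = 0.486), −0.39 (amitriptyline, adjusted p = 0.363), −0.29 (citalopram, adjusted p = 1) and −0.27 (duloxetine, adjusted p = 0.494) without a call in limma. The mirtazapine call ended without mirtazapine replicate 2 (adjusted p = 0.132), control replicate 1 (0.189), control replicate 2 (0.0584) or either citalopram array (0.0526), at differences between −0.78 and −0.60. It also ended with array weights (adjusted p = 0.0917), with only the 4 arrays compared (0.0955) and with every probe set fitted (0.138), at differences of −0.69 to −0.70.

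Notch1, the main receptor of neural stem cells, moved little. Control arrays read 8.50 and 8.52, mirtazapine arrays 8.35 and 8.36, imipramine arrays 8.40 and 8.40, and amitriptyline arrays 8.38 and 8.48. Citalopram (8.41 and 8.51) and duloxetine (8.51 and 8.64) overlapped control. The widest difference, −0.16 ± 0.09 (SE) under mirtazapine, was not called (adjusted p = 0.293 in limma). Notch3, a receptor of progenitors and of the mural cells around vessels, read 7.37 and 7.38 in control, and both arrays were lower under imipramine (7.21 and 6.99), citalopram (7.18 and 7.21) and amitriptyline (7.18 and 7.24). Under mirtazapine (7.41 and 7.35) and duloxetine (7.36 and 7.61) it overlapped control. Its differences from control ran from −0.28 ± 0.11 (imipramine, adjusted p = 0.894) to 0.11 ± 0.11 (duloxetine, adjusted p = 0.671), none of them called.

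Of the ligands Dll3 had the largest differences from control. Dll3 is an unusual Delta protein that acts within its own cell rather than on a neighbour, and it is expressed in cells that are leaving the progenitor state. Control replicates 1 and 2 read 7.36 and 7.61 and the duloxetine arrays 7.61 and 7.59. The amitriptyline arrays read 6.85 and 7.09, the imipramine arrays 6.88 and 7.09, the citalopram arrays 7.13 and 7.12, and the mirtazapine arrays 7.05 and 7.34. All 8 arrays of these 4 drugs were below both control arrays, although mirtazapine replicate 2 lay just under control replicate 1. The differences were −0.51 ± 0.13 (SE) for amitriptyline, −0.50 ± 0.13 for imipramine, −0.36 ± 0.13 for citalopram, −0.29 ± 0.13 for mirtazapine and 0.12 ± 0.13 for duloxetine. None was called in limma (adjusted p = 0.25, 0.384, 0.926, 0.234 and 0.72), while its unadjusted p-values in limma were 0.00347 for amitriptyline, 0.00416 for imipramine and 0.0238 for citalopram. Unlike for Hes5 and Notch2, the lowest mean of Dll3 belonged to amitriptyline and not to mirtazapine, a difference in order that was not tested.

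Dll1, the Delta ligand by which newborn neurons signal to neighbouring progenitors, had 2 probe sets. On the brighter one control arrays read 8.54 and 8.65, imipramine arrays 8.28 and 8.32, mirtazapine arrays 8.21 and 8.36, amitriptyline arrays 8.26 and 8.45, and citalopram arrays 8.32 and 8.49. Duloxetine, at 8.60 and 8.35, overlapped control. Differences ran from −0.31 ± 0.12 (SE, mirtazapine, adjusted p = 0.178) to −0.12 ± 0.12 (duloxetine, adjusted p = 0.671), with no call. The dimmer probe set gave −0.11 ± 0.11 under mirtazapine, and its lowest difference was −0.12 ± 0.11 (citalopram). Jag1, a ligand of progenitors and of vessels, was the most variable member between replicates. It read 7.15 and 7.49 in control, 7.53 and 7.02 under duloxetine and 7.34 and 6.77 under mirtazapine. Amitriptyline (7.28 and 7.60), citalopram (7.46 and 7.65) and imipramine (7.71 and 7.46) had the highest group means. The higher array of each lay above all control, duloxetine and mirtazapine arrays. All Jag1 groups overlapped control, and the 95% intervals of its differences were wide, as in −0.77 to 0.24 for mirtazapine and −0.24 to 0.77 for imipramine.

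Of the other repressor genes, Hes1 and Hey1 stayed near control and Hes6 differed in the direction of Hes5 by smaller amounts. Hes1, the close relative of Hes5 that shares its role in progenitors, read 7.49 on both control arrays, and its differences lay between −0.11 ± 0.09 (SE, citalopram, adjusted p = 1) and 0.10 ± 0.09 (imipramine, adjusted p = 1). Under mirtazapine it read 7.51 and 7.38, a difference of −0.04 with a 95% interval of −0.24 to 0.15, which excludes a change as large as the −1.14 of Hes5. Hey1, a Hes-related repressor that Notch also induces, stayed between 8.77 and 9.0 on all 12 arrays, and both mirtazapine arrays (8.81 and 8.77) were below control (8.87 and 8.94) at −0.12 ± 0.08 (adjusted p = 0.381), or 0.01 after a second quantile normalization. Hes6, which opposes Hes1 and favours neuronal differentiation, read 8.70 and 8.66 in control. Both its arrays were below both control arrays under imipramine (8.43 and 8.53), amitriptyline (8.52 and 8.65), mirtazapine (8.50 and 8.59) and citalopram (8.60 and 8.63), and duloxetine (8.53 and 8.71) overlapped control. The differences of Hes6 were −0.20 ± 0.10 for imipramine (adjusted p = 1), −0.13 for mirtazapine (0.388), −0.09 for amitriptyline (0.996) and −0.06 for citalopram (1). All of these adjusted values are from limma over all tested genes.

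**Figure D2:**
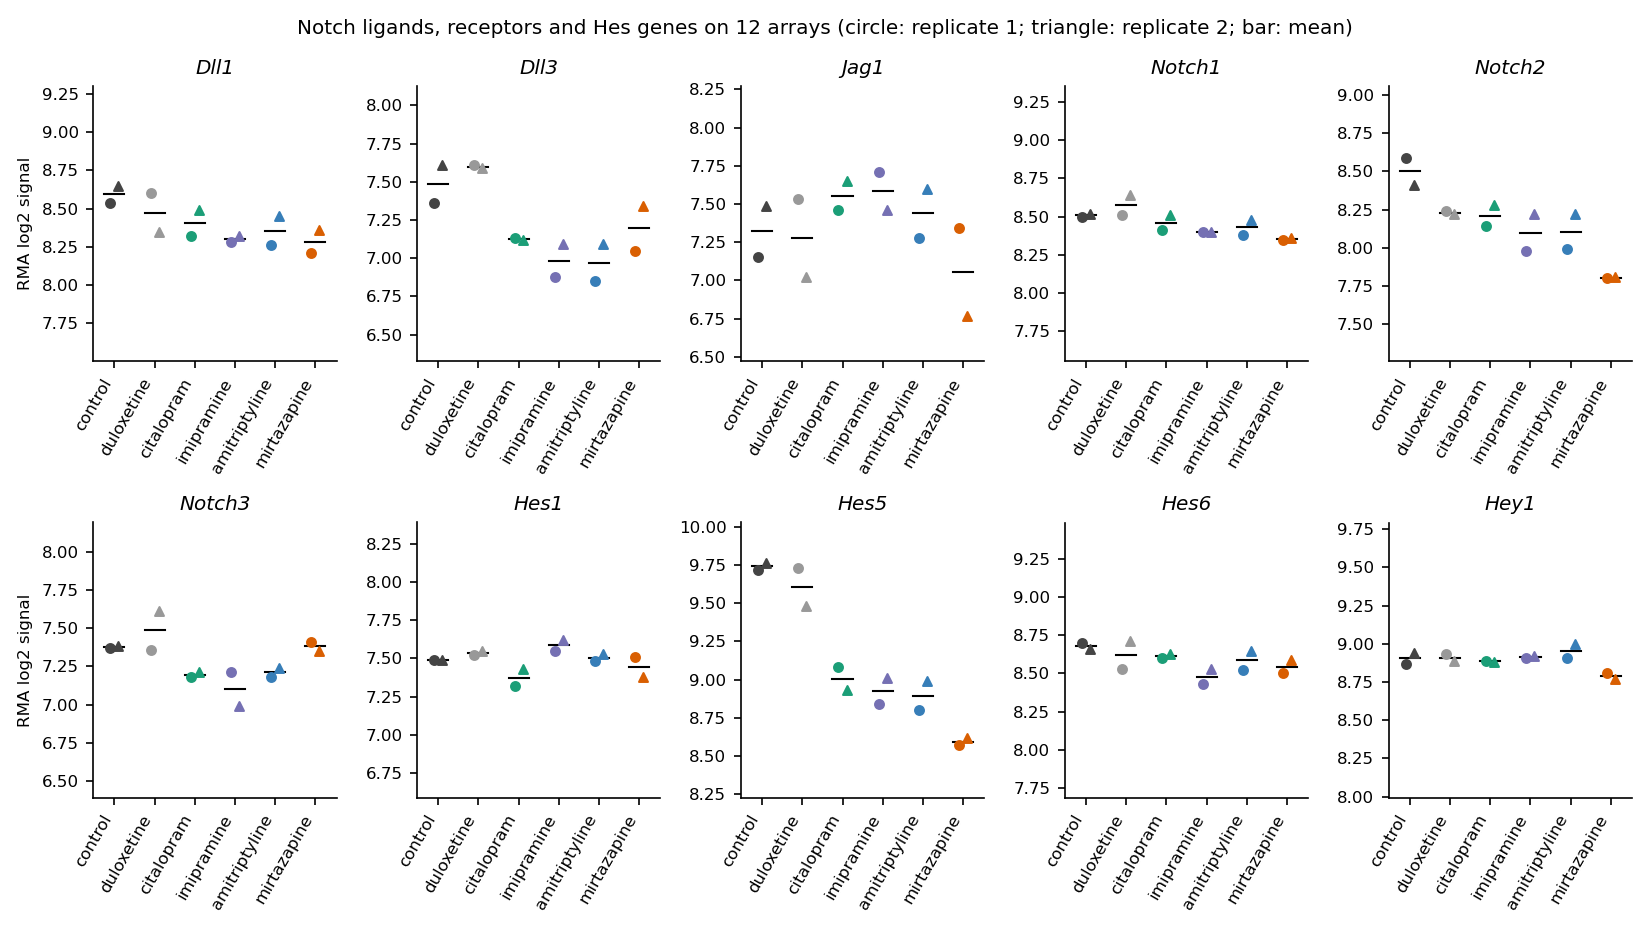
RMA log2 signal of the 10 genes (brightest probe set) on each of 12 arrays by group, over equal spans of the axis; circles are replicate 1, triangles replicate 2 and bars the mean of 2 arrays. Hes5 spans 8.57 to 9.76, Notch2 7.80 to 8.59 and Dll3 6.85 to 7.61, while Hey1 spans 8.77 to 9.0.

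Most members lay below control under 4 of the drugs, mostly by small amounts, and for mirtazapine this depended on the normalization. Under amitriptyline 7 of 10 had both arrays below both control arrays, where 24.2% of all tested genes did. Under citalopram this held for 7 of 10 against 22.1%, under imipramine for 7 of 10 against 19.1%, and under mirtazapine for 7 of 10 against 30.6%. Under duloxetine it held for 1 of 10, Notch2, against 18.3%. Without Hes5 the counts were 6 of 9 for each of the 4 drugs. After a second quantile normalization the mirtazapine count dropped to 3 of 10 (Hes5, Notch2 and Dll3) against 25.6% of all genes, with differences of −0.01 for Hes6, −0.03 for Notch1 and −0.19 for Dll1. The counts for amitriptyline, citalopram and imipramine were 7 of 10 again (against 25.9%, 20.1% and 19.7%), and duloxetine had 2 (Hes5 and Notch2, against 13.3%). The median difference of the other 9 was −0.09 under amitriptyline, −0.11 under citalopram, −0.20 under imipramine, −0.16 under mirtazapine and 0 under duloxetine, beside medians of all tested genes between −0.035 and −0.005. All 5 comparisons use the same 2 control arrays, so their counts are not separate observations, and a list picked with results in view gets no test here. In limma 0 of the 9 other members were called under amitriptyline, citalopram and duloxetine, where 0% of all genes were called, and 0 under imipramine, where 0.0286% were. At an unadjusted p under 0.05 in limma there were 2 of 9 under amitriptyline, where 6.14% of all genes were, 2 under citalopram (4.44%), 4 under imipramine (4.56%), 2 under mirtazapine (22.4%) and 1 under duloxetine (10%), all lower than control. For mirtazapine and duloxetine these counts are near the share of all genes.

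**Figure D3:**
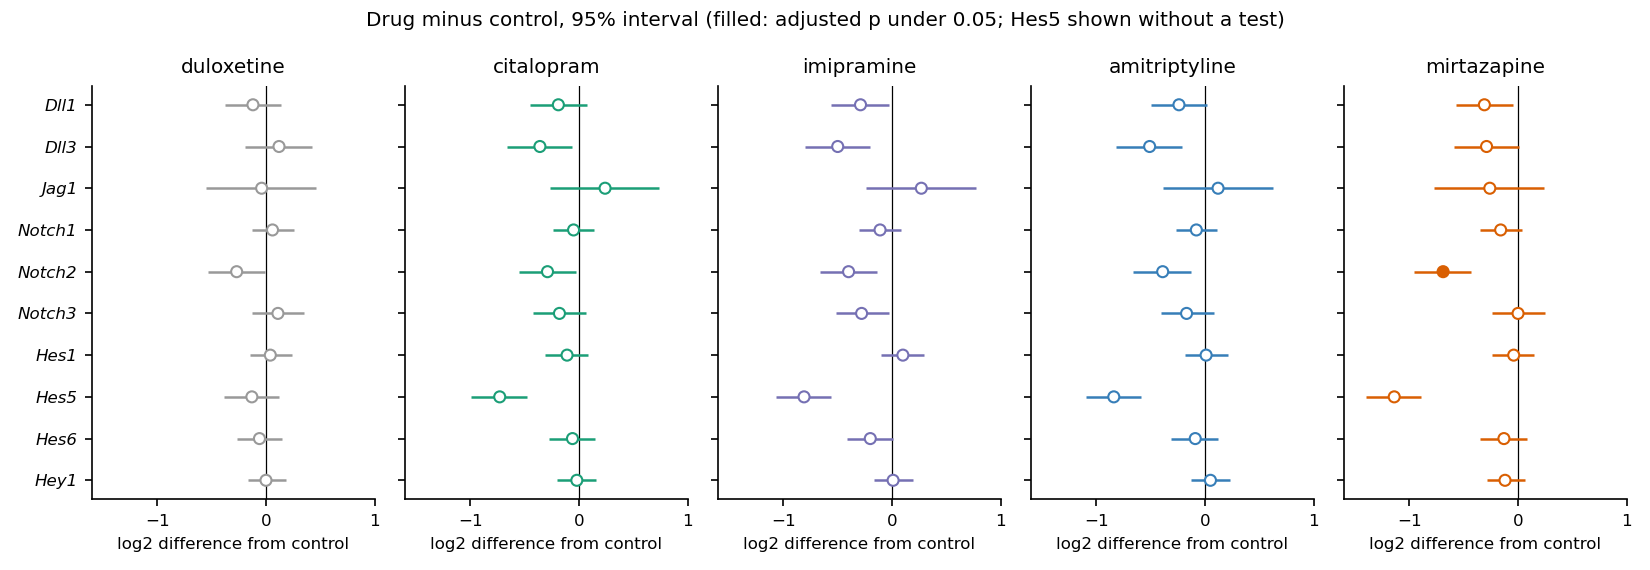
Log2 difference from control (horizontal axis) of each of the 10 genes under each drug, with 95% intervals from limma over 12 arrays; filled points passed an adjusted p of 0.05, and Hes5 is shown without a test. Hes5 lies at −0.73 to −1.14 under 4 drugs and at −0.13 under duloxetine, and Notch2 under mirtazapine (−0.69) is the filled point.

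The tricyclics amitriptyline and imipramine were the only drugs given at the same concentration. Both carry an amine side chain on a system of 3 fused rings, and the chain is joined to a carbon of the central ring in amitriptyline and to a nitrogen in imipramine. For Hes5 the difference of amitriptyline from imipramine was −0.03 ± 0.12 (SE), with arrays that overlapped. The other differences ran from −0.15 (Jag1, 95% interval −0.65 to 0.36) to 0.11 (Notch3, −0.13 to 0.35), with Notch2 at 0.01 (−0.26 to 0.27) and Dll3 at −0.01 (−0.32 to 0.29). In limma 0 of the 9 members other than Hes5 were called in this pair, 0% of all genes were, and 0 of the 9 had an unadjusted p under 0.05 (211 of all genes). Hes1 was the only member lower on both amitriptyline arrays than on both imipramine arrays (−0.08, −0.27 to 0.11). The share of all genes separated in this way was not counted for this pair, so the separation is not read as a result. Only this 1 pair was compared, since the other drugs differ in concentration.

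A wider list of Notch pathway genes, ordered by role, had 54 tested genes. Its genes were chosen by name, but with earlier results of these data known. In limma 0 of the 54 were called under any drug. At an unadjusted p under 0.05, 6 were lower and 0 higher under amitriptyline, 4 and 0 under citalopram, 5 and 0 under imipramine, 8 and 2 under mirtazapine, and 3 and 3 under duloxetine. The shares of all genes past that threshold were 6.14%, 4.44%, 4.56%, 22.4% and 10%, so the list held no more than its share of such genes under mirtazapine and about its share under duloxetine. Under amitriptyline, citalopram and imipramine it held more than its share, all lower than control, an excess that was not tested. The share with both arrays below both control arrays was 27.8% under amitriptyline, where 24.2% of all tested genes did so. It was 29.6% under citalopram (22.1% of all genes) and 29.6% under imipramine (19.1%). Under mirtazapine it was 29.6% (30.6%) and under duloxetine 18.5% (18.3%), both near the share of all genes. The list's median differences, between −0.04 and 0.01, were near 0.

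Lfng had the lowest p of the list under mirtazapine. It encodes Lunatic fringe, a glycosyltransferase that modifies Notch receptors and so tunes which ligands activate them. Control replicates 1 and 2 read 8.80 and 8.48 and duloxetine arrays 8.67 and 8.78. The arrays of imipramine (8.02 and 7.95), mirtazapine (8.08 and 8.12), amitriptyline (8.01 and 8.17) and citalopram (8.28 and 8.17) were all lower than control and duloxetine. Its differences were −0.66 ± 0.12 (SE) under imipramine (adjusted p = 0.105 in limma), −0.55 ± 0.12 under amitriptyline (0.142), −0.54 ± 0.12 under mirtazapine (0.0526) and −0.42 ± 0.12 under citalopram (0.654). The other 4 glycosylation genes were between −0.19 (Pofut1) and 0.07 (Rfng) under mirtazapine.

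Among the other effectors Nrarp, a target gene whose product dampens Notch signalling, read 8.21 and 8.41 in control and 7.87 and 7.83 under mirtazapine (difference −0.46 ± 0.12 SE, adjusted p = 0.0823 in limma). Both Nrarp arrays were also below both control arrays under imipramine (−0.34), amitriptyline (−0.26) and citalopram (−0.26). Under duloxetine Nrarp differed by −0.06. Heyl, another Hes-related gene, went the other way under mirtazapine (0.46 ± 0.17, adjusted p = 0.177): it read 6.88 and 7.19 in control and 7.23 and 7.75 under mirtazapine, the higher value on replicate 2. Under duloxetine Heyl was also above control on both arrays (0.45 ± 0.17). Hey2, a further Hes-related gene, had both arrays below both control arrays under amitriptyline (−0.35 ± 0.09), imipramine (−0.26), mirtazapine (−0.24) and citalopram (−0.21). It differed by 0.05 under duloxetine, and no Hey2 difference was called in limma. Of the 6 other effectors, 4 (Hes2, Hes3, Hes7 and Heyl) were above control under mirtazapine and 2 below. Hes2, Hes3 and Hes7 differed by 0.29, 0.29 and 0.17 there, and by 0.13, 0.04 and 0.12 without mirtazapine replicate 2. In the nuclear complex Maml2, a Mastermind coactivator, read 9.09 and 9.15 in control, 8.63 and 8.67 under imipramine and 8.86 and 8.50 under mirtazapine (−0.44 ± 0.12, adjusted p = 0.0918). Rbpj itself read 9.40 and 9.51 in control and 9.39 and 8.86 under mirtazapine (−0.33 ± 0.22, adjusted p = 0.358), and its low value was on replicate 2: without that array the difference was −0.06. Without that array the differences of Maml2 (−0.26), Heyl (0.20), Adam17 (−0.10), Neurod1 (−0.21) and Notch4 (−0.04) were also far from those with it. The γ-secretase and protease genes had differences between −0.33 (Adam17) and 0.13 (Aph1b) under mirtazapine, with Psenen (−0.19, adjusted p = 0.273) lowest in p. Of the genes for ligand endocytosis and receptor turnover, Neurl1b was lowest in p (−0.28, adjusted p = 0.148).

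Among the other ligand genes Dlk2, a Delta-like relative, had the lowest p under mirtazapine (0.32 ± 0.09 SE, adjusted p = 0.0915 in limma), reading 8.37 and 8.38 in control and 8.62 and 8.78 under mirtazapine. Notch4, mainly a receptor of blood vessels, differed by 0.16 ± 0.15 (adjusted p = 0.51). The proneural genes, which Hes proteins repress, were not called either: Neurog2, lowest in p under mirtazapine, differed by −0.21 ± 0.09 (adjusted p = 0.189), Neurod1 by −0.36 ± 0.16 (adjusted p = 0.226) and Insm1 by −0.04 ± 0.11 (adjusted p = 0.859).

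**Figure D4:**
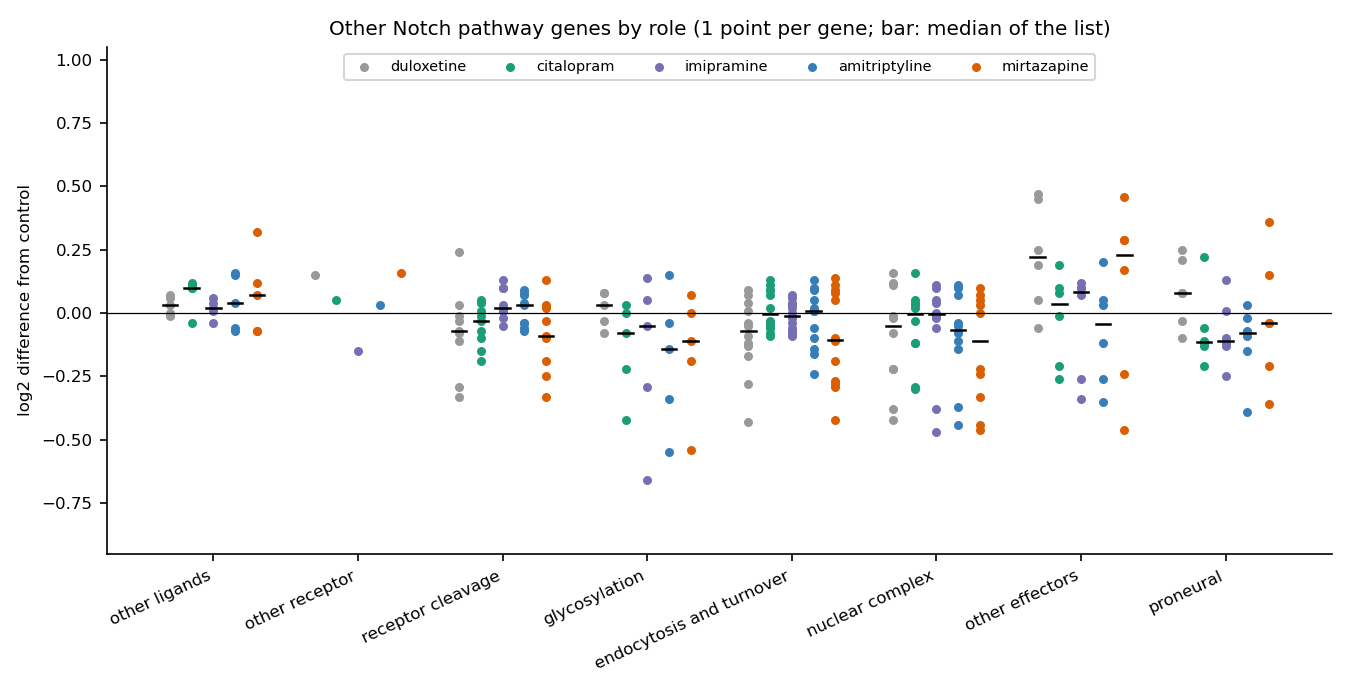
Log2 difference from control of 54 further Notch pathway genes on the vertical axis, by role along the horizontal axis, 1 point per gene and drug, with the median of each list as a bar. Most medians lie near 0, and the lowest point is Lfng in the glycosylation list (−0.66 under imipramine).

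Markers of astrocytes, of the oligodendrocyte lineage and of proliferation were lower under the drugs under which Hes5 was low, while those of neurons, endothelium and microglia had medians near or above control under mirtazapine. For endothelium and microglia the mirtazapine list means were higher on replicate 2, at 0.27 and 0.17 above the control mean. On replicate 1 they were 0.04 and 0.08 above it. The 9 neuron markers had list means of 11.24 to 11.49 on the 12 arrays, and their median differences were within −0.09 to 0.03 of control under every drug. Stmn2 and Snap25, the brightest, differed by −0.05 and −0.04 under mirtazapine. The neurofilament genes Nefl (−0.63, adjusted p = 0.0635 in limma) and Nefm (−0.29, adjusted p = 0.191) differed more there, with both arrays below both control arrays. The 8 astrocyte markers had a list mean of 8.67 and 8.71 on the control arrays, 8.71 and 8.66 under duloxetine, 8.47 and 8.39 under citalopram, 8.29 and 8.33 under imipramine, 8.18 and 8.29 under amitriptyline, and 8.25 and 8.18 under mirtazapine. Their median difference was −0.43 under mirtazapine, where 7 of 8 were negative and Aqp4 (−1.17, adjusted p = 0.01 in limma) and Gfap (−0.60, adjusted p = 0.0214) fell. The brightest of them, Aldoc, differed by −0.34 under amitriptyline and −0.24 under mirtazapine, and Gja1 by −0.66 under mirtazapine.

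The 8 proliferation markers tested had list means of 8.83 and 8.69 in control and 8.12 and 7.99 under mirtazapine, where Mki67, Top2a, Cdk1, Ccna2 and Aurkb fell, Ccna2 by 0.88 (adjusted p = 0.0282 in limma), and Pcna, the brightest, differed by −0.07. Their list means were 8.07 and 8.23 under amitriptyline, 8.27 and 8.25 under citalopram, 8.22 and 8.34 under imipramine, and 8.75 and 8.36 under duloxetine. Under duloxetine too all 8 were negative, with a median of −0.14 and the low list mean on replicate 2. There 3 of the 8 had both arrays below both control arrays, against 18.3% of all tested genes. The 12 markers of radial glia and progenitors shifted less: list means were 9.97 and 10.01 in control and 9.88 and 9.70 under mirtazapine, with a median difference of −0.27 (10 of 12 negative, 0 called), and medians between −0.17 and −0.06 under the other drugs. Fabp7, the brightest of them, differed by −0.25 under mirtazapine and −0.16 under duloxetine, and Vim by −0.12 and −0.01. Nes and Tnc, also in this list, were above control on both arrays under amitriptyline (0.41 and 0.31), citalopram (0.37 and 0.32) and imipramine (0.43 and 0.34) without a call. The 4 intermediate progenitor markers, of which Neurog2 and Insm1 are also in the proneural list, had means of 7.95 and 7.79 in control, 7.61 and 7.57 under amitriptyline, 7.70 and 7.66 under citalopram, 7.55 and 7.58 under imipramine, 7.74 and 7.74 under duloxetine, and 7.62 and 7.80 under mirtazapine. All arrays but mirtazapine replicate 2 lay below both control arrays.

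Oligodendrocyte lineage markers (7 tested) differed between the control arrays themselves, at 8.36 and 8.87, and read 7.99 and 8.15 under amitriptyline, 8.18 and 8.25 under citalopram, 8.06 and 8.18 under imipramine, 8.14 and 8.16 under mirtazapine and 8.89 and 8.93 under duloxetine. The list was thus below both control arrays under the 4 drugs under which Hes5 was low. Olig1 fell under mirtazapine (−0.83, adjusted p = 0.0223 in limma), and Olig2 differed by −0.30. Endothelial markers, of which Tek and Emcn were below the filter, had list means between 6.45 and 6.83, mural markers between 6.74 and 7.36 and microglia markers between 6.76 and 7.07, with 0 called in these 3 lists. Their brightest genes differed under mirtazapine by 0.13 (Cdh5), 0.13 (Pecam1), 0.50 (Acta2), −0.45 (Pdgfrb), −0.09 (C1qb) and 0.28 (Cx3cr1). Without mirtazapine replicate 2 these differences were −0.07, 0.12, 0.34, −0.40, −0.08 and 0.10 in the same order. The part of any of these cell types in the Hes5, Notch2 and Dll3 signals was not tested.

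**Figure D5:**
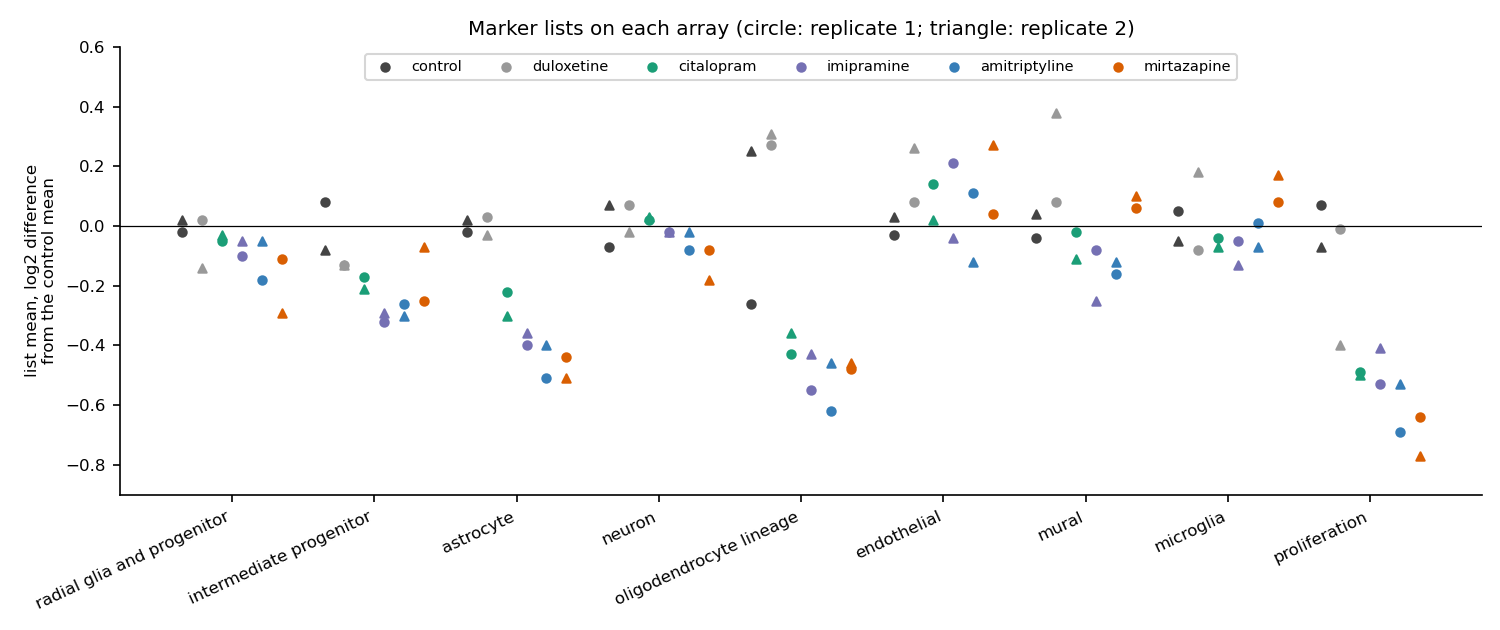
Mean log2 signal of each marker list on each array, as the difference from the mean of the control arrays; circles are replicate 1 and triangles replicate 2. Astrocyte and proliferation markers lie below control under citalopram, imipramine, amitriptyline and mirtazapine, and neuron markers stay within 0.18 of it. Proliferation markers are also low on duloxetine replicate 2 (−0.40), though not on replicate 1 (−0.01).

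Over the 12 arrays, the tested genes whose signal was most like that of Hes5 by Pearson correlation were Naaa (r = 0.981), Aqp4 (0.979), AW047730 (0.974), Tox3 (0.974), C1ql1 (0.972) and Apoe (0.971). Aqp4 encodes the water channel of astrocytes, Apoe the main lipid carrier protein of astrocytes and Naaa a lysosomal amidase. The genes least like it were Vegfa (r = −0.954), Gtpbp2 (−0.939) and Pfkfb3 (−0.938). Over the 10 arrays without duloxetine replicate 2 and mirtazapine replicate 2, r was 0.975 for Aqp4 and −0.948 for Vegfa. Among the other members r with Hes5 was 0.839 for Notch2, 0.799 for Dll1, 0.777 for Dll3, 0.751 for Notch1, 0.545 for Hes6, 0.423 for Hey1, 0.38 for Notch3, 0.179 for Hes1 and 0.0528 for Jag1. Over those 10 arrays it was 0.906 for Dll3, 0.889 for Dll1 and 0.826 for Notch2. Over 12 arrays Notch2 was the member nearest to Hes5 and ranked 242 of 17467 genes, while over the 10 arrays Dll3 and Dll1 were nearer. These arrays come in groups of 2, and the groups set much of each r, so the values describe these arrays only.

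Arrays duloxetine replicate 2 and mirtazapine replicate 2 stood apart from the other 10: regressed on the mean of the remaining arrays across tested genes they had slopes of 0.923 and 0.908, against 0.997 to 1.03 for the others. Without both, the Hes5 difference was −1.17 under mirtazapine and −0.01 under duloxetine, and Notch2 fell by 0.70 under mirtazapine (adjusted p = 0.0493 in limma).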

How the data were processed

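Transcripts were measured on Affymetrix arrays in 12 samples, 2 in each of 6 groups, grouped by the titles in the labels. The deposited values are log2 signals of 41345 probe sets with 2 decimals, made by the authors with Expression Console by RMA, per the submitters' processing notes; no version or genome build is stated there. The number of arrays limits the precision.

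By the platform annotation 23521 probe sets had 1 gene symbol, 1814 several and 16010 none. A gene took its probe set of highest mean and was tested where that mean was at least 5.72, the 30th percentile over the probe sets. One linear model by group over all 12 arrays was fitted with limma 3.58.1 (lmFit, then eBayes, in R 4.3.3), with 6 residual and 3.86 prior degrees of freedom. Benjamini-Hochberg adjustment ran over 17467 genes, and a gene was called under 0.05. Counts of called members leave out Hes5. Second probe sets were read from the same model over all probe sets. The fit was tested on simulated data.

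The members and lists were chosen with earlier results of these data known. The genes named are all members, called pathway genes, the gene of lowest p under mirtazapine per pathway role, the 2 brightest genes per marker list, and the 6 most and 3 least correlated with Hes5 (predicted genes, clones and small RNAs passed over). Hes2, Hes3, Hes7, Heyl, Hey2, Rbpj, Neurod1, Insm1, Adam17, Aph1b, Pofut1, Rfng, Aqp4, Gfap, Nefl, Nefm, Nes, Tnc, Mki67, Top2a, Cdk1 and Aurkb were named after their values were seen. Alternatives were dropping the filter, raising it to the 50th percentile, fitting every probe set, trend and robust in eBayes, weights per array, renewed quantile normalization, a replicate block, only the 4 arrays compared, each array left out, and both arrays that stand apart left out. Promoters are RefSeq's (GRCm38.p6). Python 3.11.15 and matplotlib 3.10.9 drew the figures.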

Additional observations from a re-analysis of the deposited data

How the results depend on the processing

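The Hes5 difference on the brighter probe set kept its direction under all 21 alternatives for each drug: −1.17 to −1.03 under mirtazapine, −0.94 to −0.75 under amitriptyline, −0.90 to −0.73 under imipramine, −0.81 to −0.66 under citalopram and −0.26 to −0.01 under duloxetine. The last range is also that over single arrays left out (−0.26 without duloxetine replicate 1, −0.01 without replicate 2), and leaving out both arrays that stand apart gave −0.01. The cause of the changes below was not tested. Of the 9 members other than Hes5, 1 (Notch2) was called under mirtazapine as reported, 0 with every probe set fitted, 0 with array weights, 0 with only the 4 arrays compared, and 0 to 1 over single arrays left out. Under the other drugs the count was 0 in every alternative. Of the 54 further pathway genes, 0 as reported, 1 was called under mirtazapine with the 50th percentile filter and 1 with trend and robust (Lfng both times). With array weights 1 was called under amitriptyline (Lfng) and 2 under imipramine (Lfng and Maml2), and 1 under each (Maml2) with both arrays that stand apart left out. Over single arrays left out 0 to 4 were called under mirtazapine (4 without either duloxetine array, where 7.6% of all genes were, and 3 without mirtazapine replicate 1, where 8.3% were) and 0 to 5 under duloxetine, the 5 without duloxetine replicate 1, where 11.7% of all genes were. With the replicate block mirtazapine had 1 member other than Hes5 called and no count of calls among members or pathway genes changed. The replicate numbers were not taken as pairs: deviations of same-numbered arrays correlated between −0.438 and 0.712 over 15 pairs of groups, above 0.1 in 4. Calls over all genes under mirtazapine, 304 as reported, were 191 with no filter, 110 with array weights, 14 with only the 4 arrays compared and 0 with every probe set fitted, and ranged from 0 (without control replicate 1) to 1450 (without mirtazapine replicate 1). The difference of the second Hes5 probe set changed sign with single arrays left out (−0.38 to 0.23 under mirtazapine), and 2 arrays a group limit what differences can be seen.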
